A study of Mus musculus with 108 samples.

Results

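Liver RNA was compared between male mice of the inbred strain 129S1/SvImJ (129) on a high fat and sucrose diet (HFD) and on chow, in the hours on both sides of lights off. The members are the 12 wild-type 129 libraries of zeitgeber time (ZT, hours after lights on) 10 and 14, of 108 samples in the series, chosen by strain, diet and time alone. They form 4 groups of 3 replicates: HFD at ZT10, HFD at ZT14, chow at ZT10 and chow at ZT14. HFD is D12492i in the labels and chow is Normal Chow. All 12 were wild type, so the diet was the difference between the groups at each time. The other wild-type libraries used for contrast were 24 of 129 at ZT2, ZT6, ZT18 and ZT22 and 12 of C57BL/6J (B6) at ZT10 and ZT14. The mice's age and the length of feeding are not given in the sources used here, and neither is whether replicates were separate animals, so the p-values cover only variation among these libraries, which may be technical.

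Mice eat mostly at night, so ZT10 falls late in the resting phase and ZT14 early in the active and feeding phase. The liver then turns to storing glucose and making fat, under the joint control of food signals and of the circadian clock, a loop of transcription factors that each hepatocyte runs. The liver also clears foreign compounds, steroids and drugs. The nuclear receptors CAR (Nr1i3) and PXR (Nr1i2) switch on cytochrome P450 enzymes that oxidise them, and transferases then attach glutathione, glucuronic acid or sulfate.

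Values are quantile-normalised read counts per transcript (the authors' unit, called level here). Every library therefore has the same total, 10837743, and the same set of sorted values, so sequencing depth is unknown and a level is in part a rank. Differences are log2(level + 1) on HFD minus chow with time as a block, given ± SE, with limma's p-values adjusted over all 11287 genes tested. A gene was called, or said to have risen or fallen, where the adjusted p was below 0.05.

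Markers of hepatocytes were abundant in all 12 libraries. Their summed level was 819755 to 1779964 on HFD and 545280 to 1583962 on chow, and Alb held the highest value of the table in 7 of the 12. None of the 14 tested hepatocyte markers was called by limma, and 1 had an unadjusted p below 0.05. A few libraries stood apart. The chow ZT14 libraries of replicates 2 and 3 had levels of 39055 and 35151 for Mir6236, a microRNA annotation, against 53.8 in chow ZT14 replicate 1 and 921 to 4030 on HFD, and 1.13% and 1.10% of tested genes lay under a level of 1 in them, against at most 0.319% on HFD. Without these 2 libraries the diet comparison called 201 genes, 109 up and 92 down, of which 179 were among the 446 called with them. The HFD ZT14 library of replicate 1 carried transcripts that female livers make in quantity: Sult3a1 was at 105.1 and Cyp3a41a at 71.7, against at most 2.64 and 1.13 in the other 11, while its Y-linked Ddx3y (893.5) and Uty (337.1) were near those of the other HFD libraries (914.1 to 1170 and 311.5 to 401.4). Without it 503 genes were called, 285 up and 218 down. Refits without these libraries are given beside many of the genes and lists whose calls turned on them, but not for every called gene.

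HFD changed 446 genes in 129 liver at these times, 257 upward (2.28% of those tested) and 189 downward (1.67%). These shares are the background for the counts of rises and falls in the gene lists. The median over all tested genes was 0.0022. Of the called genes 79 rose and 51 fell by 2-fold or more. All 6 HFD libraries lay above all 6 chow libraries for 153 genes (1.36%) and below all of them for 132 (1.17%). Removing each library's trend with GC content and transcript length gave 392 rises and 452 falls, so the balance of rises over falls depended on that step. The largest falls were those of cytochrome P450 genes and the largest rises those of Pcdh11x, Sult1e1 and Saa2.

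**Figure D1:**
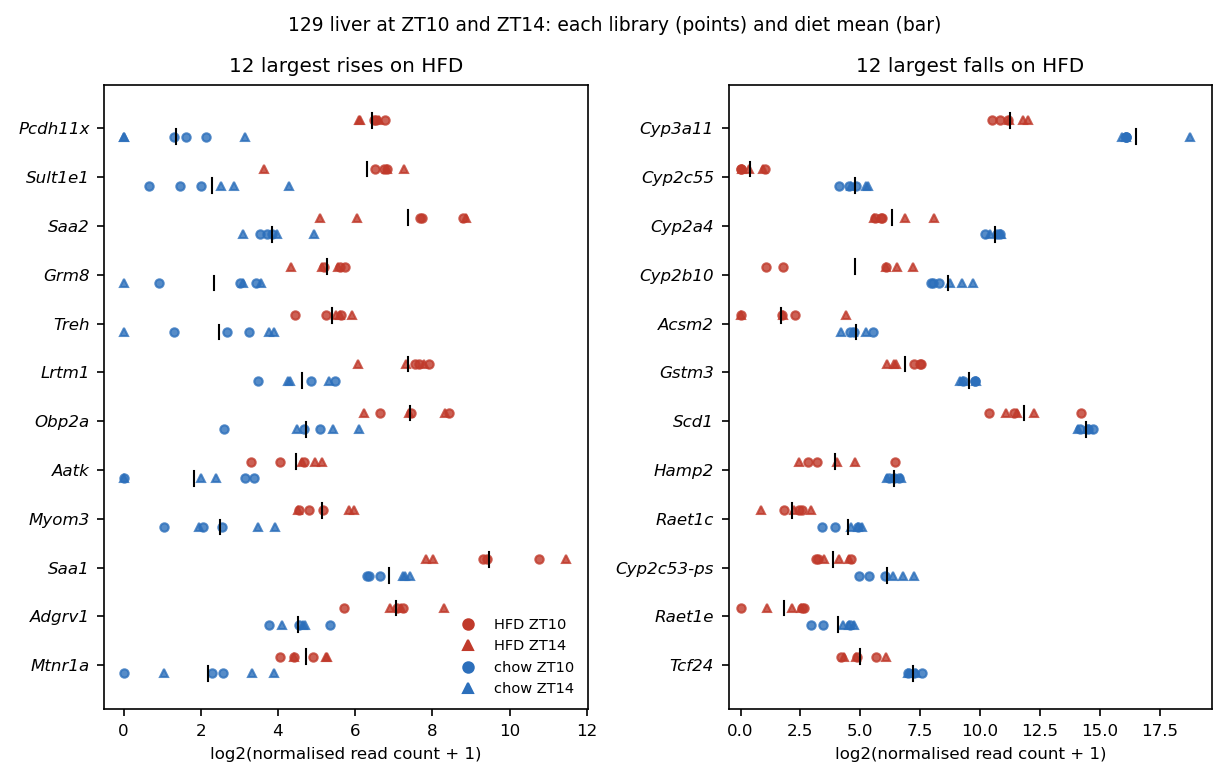
Each point is 1 library, on a scale of log2(level + 1), for the 12 genes with the largest rises (left) and the 12 with the largest falls (right); red is HFD, blue is chow, circles are ZT10, triangles are ZT14 and bars are diet means. Pcdh11x and Cyp3a11 show a wide gap between the diets, while for Sult1e1 1 HFD library (level 11.6) sits among the chow libraries.

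Single cytochromes that oxidise foreign compounds had the largest falls. Of 16 tested cytochromes known as CAR or PXR targets, 7 fell and none rose (background 1.67% and 2.28%). In 7 of the 16, the same genes, every HFD library was below every chow library (background 1.17%). Calling a fall on these libraries favours such a gap, and 92 of all 189 called falls had it. The median over the 16 was -0.194. Cyp3a11 (chr5:145854607-145879854, minus strand, mm10), the main drug-metabolising cytochrome of mouse liver and the standard PXR target, had levels of 2309, 1797 and 1441 at ZT10 and 2377, 4129 and 3532 at ZT14 on HFD, against 70334, 70334 and 70334 at ZT10 and 439903, 70334 and 61431 at ZT14 on chow. Its difference was -5.26 ± 0.36 (adjusted p = 6.82e-07). The chow values repeat because the most abundant transcripts take the few top values shared by all libraries, so the size of this fall rests on ranks. Cyp2c55 was at 0 to 1.05 (median 0.167) on HFD, against 16.4 to 38.9 (median 25.3) on chow (-4.37 ± 0.33, adjusted p = 1.43e-06). Cyp2a4, a steroid 15-alpha-hydroxylase, was at 46.6 to 272 (median 58.1) on HFD, against 1188 to 1851 (median 1738) on chow (-4.32 ± 0.31, adjusted p = 9.85e-07), and the highest of its HFD values was in replicate 1 of ZT14. The HFD values of both genes lay far under those of chow.

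Cyp2b10 (chr7:25897658-25926624, plus strand, mm10), the standard CAR target, varied more. It had levels of 66.8, 1.08 and 2.4 at ZT10 and 148, 92.8 and 66.9 at ZT14 on HFD, against 308, 247 and 259.9 at ZT10 and 432, 829 and 606 at ZT14 on chow (-3.87 ± 0.67, adjusted p = 0.00401). In ZT10 2 of the 3 HFD libraries were near 0, and the groups did not overlap. The other 3 that fell were Cyp2c29 (-1.89 ± 0.17), the coumarin hydroxylase Cyp2a5 (-1.67 ± 0.26) and Cyp3a25 (-0.65 ± 0.15). Without the 2 chow libraries high in Mir6236, 6 of the 7 kept their call and Cyp3a25 had an adjusted p of 0.0737. Without HFD ZT14 replicate 1 the count was 7. Of the receptors themselves, Nr1i3 rose by 0.56 ± 0.13 (adjusted p = 0.0279, 0.0803 without the 2 libraries), and Nr1i2 did not pass, at 279 to 745 (median 416) on HFD and 278 to 577 (median 388) on chow (adjusted p = 0.671). Cyp2a4 and Cyp2a5 are close copies whose reads can be shared.

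Promoter windows (RefSeq, GRCm38.p6, 250 bases before to 50 after the start, gene strand, B6 reference sequence) are shown for Cyp3a11, Cyp2b10, Cyp2a4 and Cyp2a5. Of the fallen cytochromes, only these had a match to the ROR element or a D-box, and those without a match are not shown. Each window was searched on both strands for 8 sets of letters chosen with the results known: the E-box CACGTG, the D-boxes TTATGTAA and TTATGCAA, the C/EBP letters TTGCNNAA, and the ROR, PPAR, sterol and heat shock elements. Capitals mark only a match to letters of clock-linked factors. In Cyp3a11 it is AAGTAGGTCA, a match to the ROR element, 166 bases before the start. In the other 3 it is TTGCATAA, the opposite strand of the D-box TTATGCAA bound by DBP, TEF and HLF, and it also matches the C/EBP letters. The windows are chr5:145879805-145880104 (minus strand) for Cyp3a11, chr7:25897408-25897707 (plus strand) for Cyp2b10, chr7:26306942-26307241 (plus strand) for Cyp2a4 and chr7:26835089-26835388 (plus strand) for Cyp2a5.
Cyp3a11: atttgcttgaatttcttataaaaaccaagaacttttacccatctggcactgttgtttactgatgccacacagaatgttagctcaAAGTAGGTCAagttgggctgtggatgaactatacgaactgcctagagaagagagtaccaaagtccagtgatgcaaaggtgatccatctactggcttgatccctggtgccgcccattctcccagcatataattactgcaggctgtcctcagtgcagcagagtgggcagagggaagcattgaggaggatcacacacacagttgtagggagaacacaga
Cyp2b10: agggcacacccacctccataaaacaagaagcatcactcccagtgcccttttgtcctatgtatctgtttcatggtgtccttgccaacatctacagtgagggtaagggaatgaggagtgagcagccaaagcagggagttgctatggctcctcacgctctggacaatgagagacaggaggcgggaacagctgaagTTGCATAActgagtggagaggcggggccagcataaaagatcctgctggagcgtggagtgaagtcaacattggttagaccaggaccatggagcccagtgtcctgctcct
Cyp2a4: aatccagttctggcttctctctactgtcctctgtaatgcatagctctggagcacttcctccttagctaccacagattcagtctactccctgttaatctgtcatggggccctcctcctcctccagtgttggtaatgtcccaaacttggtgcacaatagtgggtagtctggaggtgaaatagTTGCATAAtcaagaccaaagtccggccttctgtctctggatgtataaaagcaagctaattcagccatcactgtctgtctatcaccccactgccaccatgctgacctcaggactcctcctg
Cyp2a5: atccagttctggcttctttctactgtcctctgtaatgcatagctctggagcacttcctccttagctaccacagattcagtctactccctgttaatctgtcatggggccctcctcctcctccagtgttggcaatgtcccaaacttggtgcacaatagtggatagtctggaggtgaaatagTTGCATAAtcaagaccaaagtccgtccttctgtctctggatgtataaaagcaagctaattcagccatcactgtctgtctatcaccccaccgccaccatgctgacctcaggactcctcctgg

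This D-box match lay 58 bases before the start in Cyp2b10, 70 in Cyp2a4 and 71 in Cyp2a5. The Cyp2a4 and Cyp2a5 windows are 97.7% identical, so their matches are not independent. These 3 were the matches among 20 windows of the CAR and PXR cytochromes (15%), against 0.888% of all 27025 gene windows and 0.827% of the 8950 tested genes with a window. Among all fallen genes with a window TTATGCAA occurred in 4 of 140 (2.86%), and among risen genes in 1 of 194 (0.515%), which was Esrrg. The other D-box, TTATGTAA, occurred in none of the 20 cytochrome windows, in 3 of the 140 (2.14%), in 2 of the 194 (1.03%) and in 1.11% of all windows. The ROR element occurred in 1 of the 20 windows and in 0.259% of all windows. The sterol element, unmarked above, occurred in the Cyp2a4 and Cyp2a5 windows (10%, against 0.27% of all windows), and the C/EBP letters in 9 of the 20 (45%, against 12.2%). The E-box, PPAR and heat shock letters occurred in none of the 20. A match in these letters is a description of the window.

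Conjugating enzymes made up the next group of falls. Of 30 tested, 10 fell and 1 rose (background 1.67% and 2.28%), 19 did not pass, and the median was -0.337. Glutathione S-transferases made up 7 of the falls. Gstm3 was at 69.2 to 184 (median 119) on HFD, against 569 to 906 (median 754) on chow (-2.64 ± 0.17, adjusted p = 6.82e-07), Gsta2 at 58.7 to 84.1 (median 74.3) against 147 to 317 (median 247) (-1.66 ± 0.17), and Gstm1 at 2304 to 3812 (median 2992) against 4906 to 10401 (median 7924) (-1.36 ± 0.14). In none of these did a HFD library reach the lowest chow library. Gsta4, Gstm4, Gstm6 and Gstp1 fell by 0.74 to 1.06 on the log2 scale. The glucuronosyltransferases Ugt2b1 (-0.90 ± 0.14), Ugt2b5 (-0.82 ± 0.15) and Ugt2b35 (-0.84 ± 0.13) fell too, each with all HFD libraries below all chow libraries. Genes in these families are similar in sequence and can share reads. Without the 2 libraries high in Mir6236 8 fell and 1 rose, and without HFD ZT14 replicate 1 the counts were again 10 and 1. Of 13 tested targets of NRF2, the sensor of oxidative stress, 4 fell and none rose: Ephx1, an epoxide hydrolase (-0.72 ± 0.11), Gclc, the rate-limiting enzyme of glutathione synthesis (-0.44 ± 0.09), Gsr, glutathione reductase (-0.40 ± 0.08), and Aox1, aldehyde oxidase (-0.34 ± 0.09, adjusted p = 0.047). Aox1 lost its call without HFD ZT14 replicate 1 (adjusted p = 0.0736) and without the 2 libraries (adjusted p = 0.13).

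The conjugating enzyme that rose was Sult1e1 (chr5:87575968-87591611, minus strand, mm10), the sulfotransferase that inactivates oestrogens. It had levels of 90, 111 and 107 at ZT10 and 11.6, 154 and 112 at ZT14 on HFD, against 0.584, 1.78 and 3.01 at ZT10 and 4.81, 6.24 and 18.4 at ZT14 on chow. The difference was 4.001 ± 0.60 (adjusted p = 0.00128). The other 5 HFD libraries were far above chow, and HFD ZT14 replicate 1 lay below the highest chow library. Leaving that library out gave 4.65 (adjusted p = 3.74e-06). Pcdh11x (chrX:120290327-120910618, plus strand, mm10), a protocadherin of cell adhesion, had the largest rise, with levels of 88.5, 92.2 and 108 at ZT10 and 68.3, 97.1 and 67.1 at ZT14 on HFD, against 1.48, 3.41 and 2.05 at ZT10 and 7.91, 0 and 0 at ZT14 on chow (5.07 ± 0.44, adjusted p = 7.94e-06). The gene was near 0 on chow and no value overlapped.

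Other large rises followed. Lrtm1, a leucine-rich repeat membrane protein, was at 66.7 to 239 (median 193) on HFD, against at most 43.3 (median 23.4) on chow (2.76 ± 0.34). Grm8, a metabotropic glutamate receptor (2.93 ± 0.54), Treh, which splits trehalose (2.91 ± 0.56), the odorant-binding lipocalin Obp2a (2.68 ± 0.48), Myom3, a myomesin (2.64 ± 0.38), the adhesion receptor Adgrv1 (2.54 ± 0.33) and the melatonin receptor Mtnr1a (2.52 ± 0.50) rose with no overlap between diets. Aatk, a kinase, rose by 2.64 ± 0.58 with overlap, and lost its call without HFD ZT14 replicate 2 (adjusted p = 0.0531). Further large falls were those of Acsm2, a medium-chain acyl-CoA synthetase (-3.13 ± 0.60), the transcription factor Tcf24 (-2.21 ± 0.28), the pseudogene Cyp2c53-ps (-2.26 ± 0.32), and Raet1c (-2.33 ± 0.39) and Raet1e (-2.25 ± 0.47), which encode ligands of a natural killer cell receptor. The Raet1 genes are near-identical copies, and their separate levels are uncertain.

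Acute phase genes, which hepatocytes switch on under inflammatory signals, held 7 rises and no fall among 25 tested (background 2.28% and 1.67%), with a median of 0.344. The other 18 did not pass. Without the 2 libraries high in Mir6236 4 rose and 1 fell, and without HFD ZT14 replicate 1 6 rose. Saa2, a serum amyloid A protein carried on HDL, had levels of 212, 204 and 440.3 at ZT10 and 471, 65 and 33.1 at ZT14 on HFD, against 12.1, 13.5 and 10.6 at ZT10 and 29.5, 14.7 and 7.49 at ZT14 on chow (3.52 ± 0.53, adjusted p = 0.00128). Its neighbour Saa1 had levels of 687, 634 and 1739 at ZT10 and 2797, 228 and 256 at ZT14 on HFD, against 77.5, 81.3 and 98.9 at ZT10 and 150.5, 157 and 169 at ZT14 on chow (2.59 ± 0.50, adjusted p = 0.00804). All HFD libraries were above all chow libraries for both, but the HFD libraries of ZT14 spread widely, with replicate 1 the highest. Lcn2, an iron-scavenging lipocalin, was at 13.2 to 97.5 (median 60.6) on HFD, against 7.07 to 23.3 (median 8.64) on chow (2.005 ± 0.42). Hp, haptoglobin (0.94 ± 0.24, adjusted p = 0.0359), Apcs, serum amyloid P (0.68 ± 0.18, adjusted p = 0.0417), the metalloreductase Steap4 (0.96 ± 0.15) and Itih3 (0.62 ± 0.13) made up the 7. Hp kept its call in 6 and Apcs in 2 of the 12 refits that left out 1 library. Members that did not pass included Orm1 at 1231 to 3081 (median 1849) on HFD and 2284 to 2784 (median 2704) on chow, and Crp at 1390 to 1694 (median 1649) and 1786 to 2097 (median 1876). For Crp every HFD library was below every chow library.

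The Saa1 and Saa2 windows are shown as the pair of acute phase promoters with the largest rises. Capitals mark TTGCACAA, a match to the C/EBP letters TTGCNNAA, 182 bases before the start in Saa1 and 183 in Saa2. The windows are chr7:46742931-46743230 (minus strand) for Saa1 and chr7:46751583-46751882 (plus strand) for Saa2, again from RefSeq GRCm38.p6.
Saa1: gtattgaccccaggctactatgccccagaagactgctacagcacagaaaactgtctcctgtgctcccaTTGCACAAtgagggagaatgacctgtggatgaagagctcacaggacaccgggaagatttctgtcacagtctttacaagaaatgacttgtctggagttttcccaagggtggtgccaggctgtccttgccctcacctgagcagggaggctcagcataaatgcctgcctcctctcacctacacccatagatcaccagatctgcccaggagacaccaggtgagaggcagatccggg
Saa2: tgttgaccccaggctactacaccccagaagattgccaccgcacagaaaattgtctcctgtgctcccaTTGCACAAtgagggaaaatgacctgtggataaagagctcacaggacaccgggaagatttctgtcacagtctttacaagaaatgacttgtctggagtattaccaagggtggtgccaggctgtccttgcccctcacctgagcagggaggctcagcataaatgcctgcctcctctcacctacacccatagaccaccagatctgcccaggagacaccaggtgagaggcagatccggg

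These windows are 95.3% identical, so their matches are not independent, and reads of the 2 genes can be shared. The C/EBP letters were found in 13 of 20 acute phase windows (65%) and in 12.2% of all windows. Among all risen genes with a window they occurred in 30 of 194 (15.5%).

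Iron genes changed beside the acute phase genes. Hamp, which encodes hepcidin, the hormone that limits iron uptake and release, was at 841 to 1234 (median 1093) on HFD, against 1871 to 3360 (median 2607) on chow (-1.24 ± 0.14, adjusted p = 9.78e-05). Its close copy Hamp2 fell by 2.46 on the log2 scale, with 1 HFD library at 86.5 among the chow values of 67.4 to 104 (median 84.2) (adjusted p = 0.0121, 0.0956 without the 2 libraries high in Mir6236). Hjv, hemojuvelin, the BMP co-receptor that drives hepcidin transcription, was at 278 to 390.5 (median 325) on HFD, against 125 to 168 (median 153) on chow (1.13 ± 0.11, adjusted p = 3.94e-05). Neither Hamp nor Hjv overlapped between diets. The zinc and iron importer Slc39a14 rose by 0.58 ± 0.12 (adjusted p = 0.0164, 0.0968 without the 2 libraries). Of 15 tested genes in the metal and iron list, which lacks Hjv, 1 rose and 2 fell (background 2.28% and 1.67%).

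Markers of liver macrophages rose in part (background over all tested genes 2.28% up and 1.67% down). Of 14 tested Kupffer cell markers 3 rose and none fell, with a median of 0.345: the scavenger receptor Marco (1.94 ± 0.50; 1.46 to 12 (median 8.43) on HFD, against 0 to 3.91 (median 1.39) on chow), Cd5l (0.78 ± 0.15; 198 to 469 (median 315) on HFD, against 153 to 224 (median 176) on chow) and Adgre1, which encodes F4/80 (0.82 ± 0.20; 75.7 to 191 (median 114) on HFD, against 46 to 92.3 (median 57) on chow). Their diets overlapped. The defining Kupffer marker Clec4f was at 268 to 495 (median 328) on HFD and 193 to 295 (median 257) on chow (adjusted p = 0.143), and the summed level of the list was 2763 to 4089 on HFD and 2395 to 3548 on chow. Of 6 tested markers of recruited macrophages 1 rose, the monocyte chemokine receptor Ccr2 (6.07 to 36.2 (median 20.4) on HFD, against 0 to 10.6 (median 5.8) on chow; 2.17 ± 0.51), and the sum was 71.4 to 160.1 on HFD and 60.6 to 136.9 on chow. Trem2, a marker of lipid-associated macrophages, reached at most 3.48 in the 12 libraries. It and the other recruited macrophage markers too low to be tested each had a higher mean on HFD. Examples are Itgax (4.16 on HFD and 0.294 on chow), Trem2 (1.24 and 0) and Gpnmb (2.67 and 1.06). Of the 6 tested recruited macrophage markers 4 had a positive difference, and the median of their list's sum was 110.6 on HFD and 120.7 on chow. Among the 14 tested Kupffer markers 10 had a positive difference. In bulk tissue more cells of a type and more RNA per cell cannot be told apart. Without the 2 libraries high in Mir6236 the Kupffer count was 1 and the recruited macrophage count 1. Marco and Adgre1 each kept their call in 3, and Ccr2 in 4, of the 12 refits that left out 1 library. No member of the stellate cell (12 tested), sinusoidal endothelial (14), neutrophil (4), erythroid (7), lymphocyte (1), cholangiocyte (3) or adipocyte (3) lists was called by limma, and 3, 0, 0, 2, 0, 1 and 0 of them had an unadjusted p below 0.05. Sums of the cholangiocyte list were 151.5 to 241.9 on HFD and 97.5 to 160.3 on chow. Of 11 listed pancreatic acinar genes 1 was tested, Cela1, which rose (0.80 ± 0.14), and among the others the highest level in the 12 libraries was 8.89, for Cela2a. The sum of the list was 108.1 to 156.5 on HFD and 56.9 to 95.1 on chow, and its part in other results was not tested. Interferon-stimulated genes had 2 rises among 26 tested, Gbp3 (1.22 ± 0.29) and Psmb9 (0.95 ± 0.23), and a positive difference in 23. Neither Gbp3 (adjusted p = 0.0816) nor Psmb9 (0.128) was called without the 2 libraries high in Mir6236. The part of macrophage RNA in the acute phase and interferon values was not tested.

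Genes of fat storage rose in small numbers. Of 15 tested lipid droplet genes 4 rose and none fell (background 2.28% and 1.67%), with a median of 0.355. Plin2, the coat protein of hepatocyte droplets, was at 949.7 to 2013 (median 1253) on HFD, against 389 to 1097 (median 614) on chow (1.11 ± 0.23, adjusted p = 0.0107). Cd36, a fatty acid translocase, was at 235 to 530.2 (median 353) on HFD, against 133 to 278 (median 157) on chow (1.02 ± 0.20). The lipase inhibitor G0s2 (1.46 ± 0.37, adjusted p = 0.0388) and Fitm2, which buds droplets from the ER (0.52 ± 0.14, adjusted p = 0.0441), were the others, and the diets overlapped in all 4. Cidec, a droplet fusion protein, was at 5.57 to 26.7 (median 10.5) on HFD and 4.98 to 12.8 (median 10.4) on chow. Without the 2 libraries high in Mir6236 the count was 1, and without HFD ZT14 replicate 1 it was 3.

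All 21 tested genes of fatty acid oxidation and ketogenesis had a positive difference, though 20 did once the GC and length trend was removed and 19 without chow ZT14 replicate 1. The 3 that rose were Bdh1, which makes 3-hydroxybutyrate (0.52 ± 0.11, adjusted p = 0.0102), the medium-chain dehydrogenase Acadm (0.47 ± 0.11, adjusted p = 0.0288) and Acat1 (0.45 ± 0.11, adjusted p = 0.0309). Acadm and Acat1 each kept their call in 4 of the 12 refits that left out 1 library, and the list had 1 call without the 2 libraries. Over all tested genes 2.28% rose and 1.67% fell. Of 19 PPAR alpha targets 2 rose, Pdk4, the kinase that shuts off pyruvate dehydrogenase (17.2 to 64.6 (median 44.2) on HFD, against 7.24 to 18.7 (median 12.1) on chow; 1.50 ± 0.32), and Pex11a, which divides peroxisomes (0.46 ± 0.10), and none was called without the 2 libraries. Apoa4, an apolipoprotein that rises with hepatic fat, was at 4510 to 14693 (median 7442) on HFD, against 1298 to 3664 (median 2584) on chow (1.65 ± 0.26, adjusted p = 0.00192), with no overlap, and was the 1 call among 11 apolipoproteins. Lpl, lipoprotein lipase, chosen after its values were seen, was at 22.9 to 97 (median 73.1) on HFD, against 130.1 to 202 (median 154) on chow (-1.53 ± 0.30).

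Fat synthesis split. Scd1, the desaturase that makes oleate, had levels of 2739, 1324 and 19287 at ZT10 and 3002, 4906 and 2155 at ZT14 on HFD, against 18466, 26594 and 23255 at ZT10 and 22394, 24090 and 17577 at ZT14 on chow (-2.60 ± 0.44, adjusted p = 0.00375). One HFD library of ZT10 lay within the chow range and the other 5 below it. Me1, malic enzyme, a source of NADPH, was at 216 to 462 (median 296) on HFD, against 576 to 808 (median 645) on chow (-1.12 ± 0.15, adjusted p = 0.000735). Pklr, liver pyruvate kinase, rose (0.78 ± 0.20, adjusted p = 0.0409), and the other 11 of 14 tested did not pass: Fasn, fatty acid synthase, was at 497 to 1279 (median 575) on HFD and 182 to 1076 (median 542) on chow. In triglyceride synthesis the acyltransferase Gpam rose (0.44 ± 0.10, adjusted p = 0.018), 1 of 11 tested. Its adjusted p was 0.0508 without the 2 libraries high in Mir6236. The background for these lists and those of cholesterol synthesis was 2.28% up and 1.67% down. In cholesterol synthesis the medians were 0.523 over 10 mevalonate genes and 0.527 over 11 sterol ring enzymes, with 1 call, Sqle, squalene epoxidase (30.5 to 403 (median 219.7) on HFD, against 24.1 to 76.8 (median 41.9) on chow; 1.85 ± 0.49, adjusted p = 0.0472). Among them 3 mevalonate genes and 5 sterol ring enzymes had an unadjusted p below 0.05. Without HFD ZT14 replicate 1 the calls were 3 and 4, and Hmgcs1, the synthase at the head of the pathway, rose (adjusted p = 0.00288, against 0.144 with it). Sqle kept its call in 4 of the 12 refits that left out 1 library and lost it without the 2 libraries (adjusted p = 0.133).

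Carbohydrate genes included 4 rises and 1 fall among 22 of glycolysis and fructose entry (background 2.28% and 1.67%). Pfkfb1, the liver kinase-phosphatase that sets fructose 2,6-bisphosphate (0.74 ± 0.12), Gckr, a regulatory protein of sugar phosphorylation (0.49 ± 0.09), and Ldha, lactate dehydrogenase (0.64 ± 0.11), rose with Pklr, and Pfkfb3, an inducible isoform, fell (-1.48 ± 0.31). Pck1, the gatekeeper of gluconeogenesis, fell (-0.83 ± 0.21, adjusted p = 0.034), the 1 call among 12 gluconeogenic genes, and kept its call in 3 of the 12 refits. Among 9 genes induced by feeding 2 rose, Pklr and Ppp1r3b, the glycogen-targeting subunit of a phosphatase (1939 to 4077 (median 2621) on HFD, against 404 to 2611 (median 1550) on chow; 1.16 ± 0.24). Among 14 induced by fasting 2 rose, Cdkn1a (1.46 ± 0.39, adjusted p = 0.047) and the glucose-responsive Txnip (1.11 ± 0.27, adjusted p = 0.0335), and Pck1 fell. Over the 9 feeding genes the median was 0.499, and 7 differences were positive. Over the 14 fasting genes the median was -0.117, and 6 were positive. Without the 2 libraries Pck1 (0.139), Cdkn1a (0.16), Txnip (0.16), Pfkfb3 (0.0968) and Gckr (0.0568) lost their calls (adjusted p in brackets). In that refit the glycolysis and fructose list had 4 rises and 0 falls, and the feeding list 3 rises and 0 falls, so other members were called there.

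Other lists held few calls (background 2.28% up and 1.67% down). The urea cycle enzymes Ass1 (-0.65 ± 0.15) and Arg1 (-0.46 ± 0.10) fell among 23 genes of urea and amino acid breakdown, each with no overlap between diets, and neither was called without the 2 libraries high in Mir6236 (adjusted p = 0.143 and 0.147). Of 39 respiratory chain subunits 3 fell, Ndufb10 (-0.33 ± 0.09), Sdhd (-0.31 ± 0.08) and Cox6c (-0.42 ± 0.09), and 0 without those libraries. Outside the list Ndufb9, Ndufa12, Cox6b1 and Cox7c, chosen after their values were seen, also fell, by 0.32 to 0.51 on the log2 scale. In the unfolded protein response Xbp1 rose (0.42 ± 0.11) while the ER chaperone factors Dnajb9 (-0.80 ± 0.12) and Sdf2l1 (-0.87 ± 0.23) fell, 3 of 17. The bile acid list had 2 rises, the acyl-CoA ligase Slc27a5 (0.36 ± 0.09) and the phospholipid exporter Abcb4 (0.33 ± 0.08), and 1 fall, the basolateral exporter Abcc3 (-0.74 ± 0.16), among 19. Atf5 rose among 10 ATF4 targets (0.59 ± 0.14), and Klf6 (0.60 ± 0.16) and Klf10 (1.19 ± 0.28) among 11 immediate early genes. The nuclear receptor Esrrg, a driver of mitochondrial genes, was at 31.4 to 59.4 (median 41.9) on HFD, against 8.53 to 27.2 (median 23.1) on chow (1.07 ± 0.24, adjusted p = 0.0208), with no overlap, and kept its call in 8 of the 12 refits, but not without the 2 libraries high in Mir6236 (adjusted p = 0.0623). In the lists above, Dnajb9 kept its call without those 2 libraries, and Xbp1, Sdf2l1, Slc27a5, Abcb4, Abcc3, Atf5, Klf6 and Klf10 lost theirs (adjusted p between 0.0787 and 0.174). None of 17 heat shock chaperones, 12 growth hormone and IGF genes, 8 genes of SREBP2 control or 7 desaturases and elongases of polyunsaturated fatty acids was called by limma, and 4, 3, 0 and 1 of them had an unadjusted p below 0.05.

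Genes known to differ between the sexes moved both ways (background 2.28% up and 1.67% down). Of 19 tested male-biased genes 2 rose, the urinary protein Mup20 (0.97 ± 0.23) and Susd4 (0.65 ± 0.15), and 3 fell, Cyp4a12b (-1.67 ± 0.39), Mup7 (-0.84 ± 0.15) and Gstp1 (-1.06 ± 0.26). Of 10 tested female-biased genes Sult1e1 and Cyp17a1, a steroid hydroxylase (111 to 312 (median 245) on HFD, against 44.7 to 129 (median 100.1) on chow; 1.25 ± 0.30), rose and Cyp2a4 fell. Without HFD ZT14 replicate 1, which carried female-biased transcripts, the counts were the same in both lists. Without the 2 libraries high in Mir6236, Mup20 (adjusted p = 0.149), Susd4 (0.0592), Cyp4a12b (0.0758) and Gstp1 (0.207) lost their calls. That refit still had 3 falls and 0 rises in the male-biased list, so other members were called there. The Mup genes are close copies that can share reads.

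The diet effect had the same sign at both times for each of the 446 genes, as calling over both times favours. Fitted alone, ZT10 gave 75 calls (0.664%) and ZT14 gave 120 (1.06%). Of the 446, 67 were called at ZT10, 98 at ZT14 and 32 at both, and their median absolute difference was 0.70 at ZT10 and 0.70 at ZT14. One gene of 11287 (0.00886%) was called for a diet effect that differed between the times, and 612 had an unadjusted p below 0.05. With 3 libraries per group this test can miss real differences, so not passing does not show equal effects. The called gene was Elovl3 (chr19:46131899-46135694, plus strand, mm10), which elongates saturated fatty acids. Its levels were 261, 135 and 229 at ZT10 and 589, 1012 and 1038 at ZT14 on HFD, against 428, 490.4 and 380 at ZT10 and 292, 315 and 194 at ZT14 on chow. All HFD libraries were below all chow libraries at ZT10 and above all of them at ZT14. The diet difference was -1.10 ± 0.26 at ZT10 and 1.70 ± 0.26 at ZT14, and their difference was 2.80 ± 0.37 (adjusted p = 0.0274). Over both times its diet difference was 0.30 ± 0.40 (adjusted p = 0.747). Leaving out any of 9 of the 12 libraries left no gene called for diet by time.

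**Figure D2:**
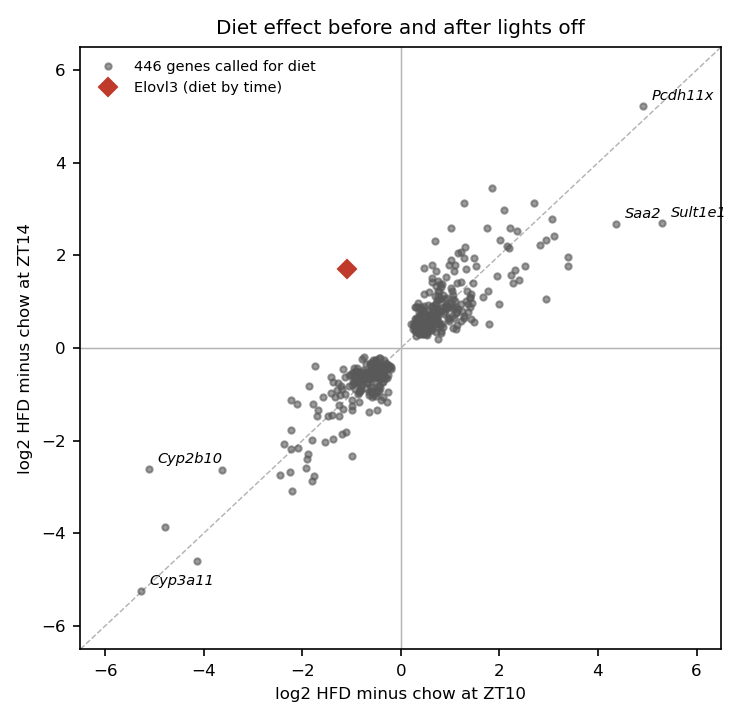
Each grey point is 1 of the 446 genes called for diet, with its log2 difference, HFD minus chow, at ZT10 on the x axis and at ZT14 on the y axis; the dashed line marks equal differences. The points lie in the quadrants of equal sign, and Elovl3 (red diamond) lies at -1.10 and 1.70.

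Of the 19 tested clock genes 3 rose and 2 fell between ZT10 and ZT14 on HFD, and 1 rose and 1 fell on chow. Comparing ZT14 with ZT10, 47 genes rose (0.416%) and 36 fell (0.319%) on chow, and 40 rose (0.354%) and 13 fell (0.115%) on HFD. Of these 22 were called on both diets, all with the same sign. Cry1, a clock repressor, had levels of 67.2, 48.6 and 73.5 at ZT10 and 120, 206 and 205 at ZT14 on HFD, against 32, 47.2 and 52.5 at ZT10 and 134, 139 and 113 at ZT14 on chow, a rise of 1.45 ± 0.25 on HFD and 1.55 ± 0.25 on chow. Arntl, the clock activator BMAL1, had levels of 5.85, 14.6 and 13.3 at ZT10 and 28.6, 93.1 and 103 at ZT14 on HFD, against 12, 14.4 and 6.31 at ZT10 and 35.5, 29.9 and 29.7 at ZT14 on chow. It rose on HFD (2.52 ± 0.47, adjusted p = 0.029) and did not pass on chow (1.52 ± 0.47, adjusted p = 0.153), and the test of the difference gave an adjusted p of 0.857. Of its HFD libraries at ZT14 2 were high and the third lay just below the chow libraries of that time. Its partner Clock rose on HFD (0.81 ± 0.15, adjusted p = 0.029), against 0.41 ± 0.15 on chow (adjusted p = 0.24; difference, 0.857). Dbp, an output factor, had levels of 295, 386 and 195 at ZT10 and 125, 45.2 and 49.3 at ZT14 on HFD, against 394, 374 and 357 at ZT10 and 100, 114 and 185 at ZT14 on chow, a difference between times of -2.09 ± 0.34 on HFD (adjusted p = 0.0171) and -1.54 ± 0.34 on chow (adjusted p = 0.0575). Tef, a related factor, fell on both diets (-0.59 on HFD and -0.60 on chow). Of the HFD libraries at ZT14, replicate 1, which carried female-biased transcripts, had the lowest Arntl and Cry1 and the highest Dbp.

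Between the diets 1 of the 19 tested clock genes was called, a rise (background 2.28%), and the others did not pass. This call was lost without the 2 libraries high in Mir6236, where 1 clock output factor rose instead. Without HFD ZT14 replicate 1, 1 clock output factor was also called, as a fall. Without chow ZT14 replicate 1, 1 of the 6 Per, Cry and Ciart repressors was also called, as a fall. The repressor Nr1d1 was at 11.5 to 65.9 (median 46.6) on HFD and 15.1 to 199.5 (median 62.3) on chow (-0.87 ± 0.40, adjusted p = 0.276), Per2 at 148 to 235 (median 193) and 117 to 289 (median 148), Per1 at 36.5 to 107 (median 64.6) and 47.6 to 162 (median 79.7), Nfil3 at 55.6 to 190.2 (median 122) and 49.6 to 128 (median 79), and Bhlhe40 at 382 to 647 (median 557) and 298 to 531 (median 368) (adjusted p = 0.0709). The remaining clock genes had differences between -0.60 (Ciart) and 0.47 (Cry1), apart from Dbp (-0.69 ± 0.24) and Arntl (0.52 ± 0.35), with overlap between the diets in each. Genes outside the clock that rose toward ZT14 on both diets included Cdkn1a, a brake on the cell cycle (3.64 on HFD and 2.77 on chow), the glucocorticoid-induced Fkbp5 (1.52 and 1.74) and Zbtb16 (2.15 and 1.82), and Lpin1, a phosphatidate phosphatase (2.26 and 1.26). These 4 were chosen after their values were seen.

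**Figure D3:**
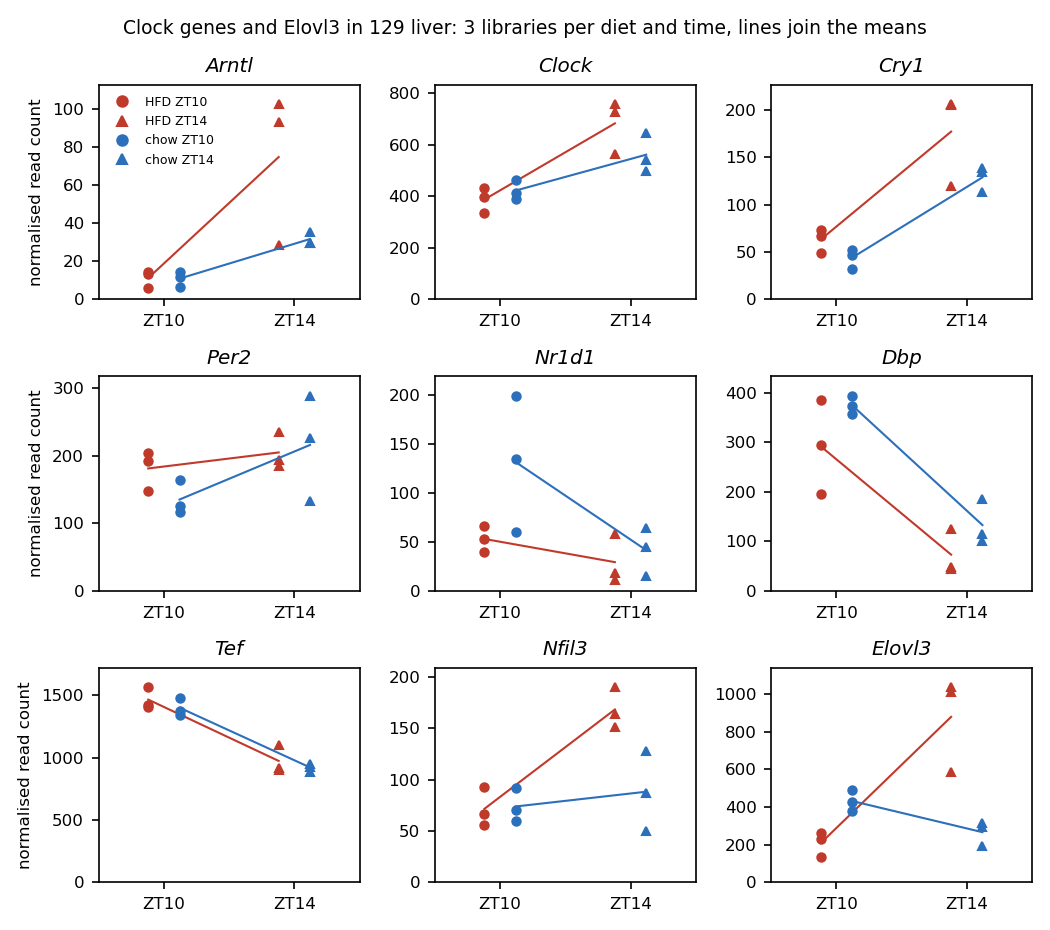
Levels (normalised read counts) of 8 clock genes and Elovl3 at ZT10 and ZT14, with HFD in red and chow in blue, 1 point per library and lines joining the means of 3. Cry1 is higher and Dbp lower at ZT14 on both diets, and the lines of the diets cross for Elovl3.

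The same diet effect was then read in libraries outside the fit that called the 446 genes, though these libraries entered the expression filter and the choice of transcript. In 129 at ZT2, ZT6, ZT18 and ZT22, where HFD called 2411 genes (21.4%), 419 of the 446 (94.0%) had the same sign, against 65.45% of all tested genes, and 320 (71.75%) were called with that sign and 4 with the opposite one. Those 320 are 13.3% of the genes called there. Cyp3a11 differed by -4.79 ± 0.25 there, Pcdh11x by 4.33 ± 0.43 and Sult1e1 by 5.32 ± 0.34.

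The diet effect around lights off was tested against that at the other 4 times. It was called as more positive for 13 genes (0.115%) and more negative for 6 (0.0532%). Col27a1, a collagen, was at 89.6 to 273 (median 168) on HFD and 43.9 to 149 (median 65.5) on chow around lights off, and at 36.3 to 318 (median 111) on HFD and 51.8 to 483 (median 183) on chow at the other times, and the diet effects differed by 1.55 ± 0.30 (adjusted p = 0.0233). Ppp1r3b was lower on chow around lights off (median 1550) than at the other times (median 2828), and its diet effect was larger by 1.02 ± 0.22. For Tet2, a DNA demethylase, the levels were 129 to 194 (median 139) on HFD and 117 to 167 (median 132) on chow around lights off, and 72.8 to 164 (median 109.9) and 171 to 255 (median 204) at the other times (0.95 ± 0.17), so the diets overlapped around lights off and did not at the other times. The splicing factor Srsf3 (0.92 ± 0.17) and Hjv (0.78 ± 0.17, with 156 to 369.8 (median 307) on chow at the other times) were the other named ones, and 2 predicted genes above 1 on the log2 scale were passed over. In the opposite direction Cyp4a14, an omega-hydroxylase and PPAR alpha target, was at 439 to 2810 (median 1081) on HFD and 1399 to 4304 (median 2494) on chow around lights off, and at 1346 to 6831 (median 4003) and 473 to 3972 (median 2230) at the other times (-1.94 ± 0.42, adjusted p = 0.0482). Brap (-0.79), Abcb4 (-0.58), Prkd3 (-0.55) and Creg1 (-0.44) followed. The count of 19 was 5 without the 2 libraries high in Mir6236 and ranged between 6 and 67 when 1 library was left out.

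In B6 at the same 2 times HFD called 3184 genes (28.2%), and 384 of the 446 (86.1%) had the same sign there, against 57.96% of all tested genes. Of the 446, 244 (54.71%) were called with the same sign and 7 with the opposite one, and those 244 are 7.66% of the genes called in B6. The diet effect was called as different between strains for 108 genes, more positive in 129 for 48 (0.425%) and more negative for 60 (0.532%). Pcdh11x was at 67.1 to 108 (median 90.4) on HFD and 0 to 7.91 (median 1.76) on chow in 129, against 2.9 to 6.24 (median 4.45) on HFD and 0.011 to 27.8 (median 3.45) on chow in B6, and the strains' diet effects differed by 4.77 ± 0.77 (adjusted p = 0.00723). Sult1e1 was at 0.094 to 1.97 (median 1.31) on HFD and 0 to 10.18 (median 0.407) on chow in B6, and its strain difference was 3.74 ± 0.83 (adjusted p = 0.0424). The diets were apart in 129 for Pcdh11x and, except in 1 library, for Sult1e1, and overlapped in B6 for both.

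Several of the largest strain differences came from changes in B6. Asns, asparagine synthetase, was at 30.4 to 90.8 (median 35.6) on HFD and 14.7 to 45.9 (median 43.5) on chow in 129, against 2.13 to 16.4 (median 6.97) and 58.8 to 171 (median 96) in B6 (3.91 ± 0.55). The female-biased cytochrome Cyp2c40 was at 0 to 19.9 (median 1.59) on HFD and 0.016 to 2.58 (median 1.35) on chow in 129, against 0 to 3.64 (median 1.07) and 46.9 to 154 (median 97) in B6 (5.89 ± 0.75), and its close copy Cyp2c69 followed it (4.68 ± 0.93). Cyp2b9 was at 0 to 0.201 (median 0) on HFD and 0 to 1.24 (median 0.012) on chow in 129, against 34.1 to 1280 (median 492) and 0 to 43.1 (median 2.11) in B6 (-6.10 ± 1.15). Cfd, complement factor D or adipsin, was listed at 0 in all 6 HFD libraries of 129, with 0 to 1.87 (median 0.05) on chow, against 27.7 to 197 (median 59.7) and 0 to 6.11 (median 1.01) in B6 (-5.47 ± 0.75). Rpl36, a ribosomal protein gene (-3.68 ± 0.80), Raet1c (-3.55 ± 0.80) and Raet1d (-2.52 ± 0.56) were the other 3 of the 5 most negative. The 7 cytochromes that fell in 129 had differences between -5.15 (Cyp2c55) and -1.21 (Cyp2a5) in B6. Cyp2a4 (-1.87) was not called in B6 by limma (adjusted p = 0.115), and the others were called as falls. None of the 7 passed the test of a strain difference (adjusted p between 0.136 and 0.733), which does not show that the effects were equal. The count of 108 was 8 without the 2 libraries high in Mir6236 and ranged between 17 and 630 when 1 library was left out, so the strain comparison turned on single libraries. Reads were aligned to mm10, the B6 genome, and a lower level in 129 where reads carry variants was not tested.

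**Figure D4:**
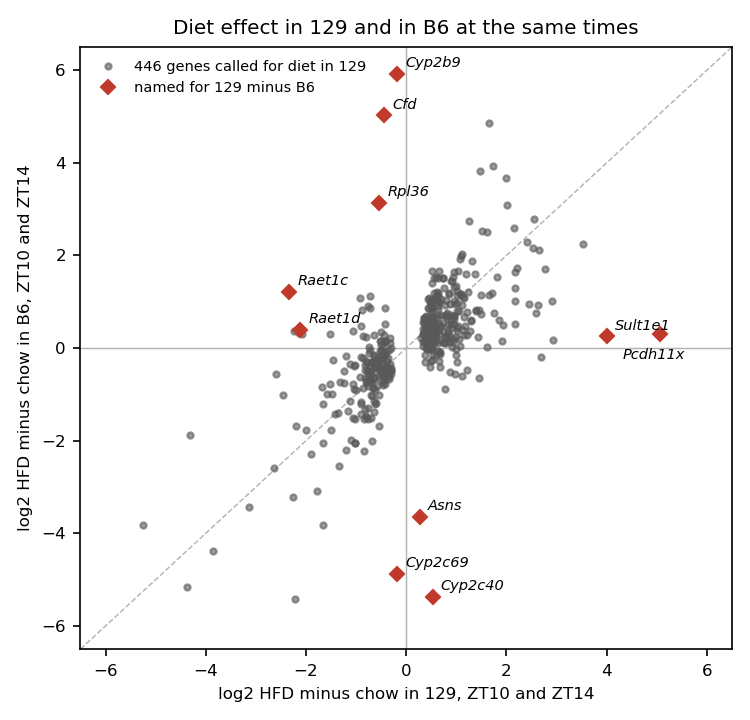
Log2 differences, HFD minus chow, at ZT10 and ZT14 in 129 (x axis) and in B6 (y axis) for the 446 genes called in 129 (grey) and the 10 genes with the largest strain differences (red diamonds); the dashed line marks equal effects. Sult1e1 and Pcdh11x lie far right near 0 in B6, and Cyp2b9 and Cyp2c40 lie near 0 in 129 and far from it in B6.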

How the data were processed

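Liver RNA (Trizol, then columns) was sequenced as TruSeq libraries, per the labels' protocols. The deposited signal values are reads per RefSeq transcript that the authors quantile-normalised. STAR, HOMER and mm10 are named in the submitters' processing notes, without versions. The table holds 42361 transcripts with 25125 symbols in 72 wild-type libraries. All libraries have identical sorted values, with 23.5% of values at 0, so depth is unknown and no counting interval can be given. Every column matched a label.

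For each symbol the transcript with the highest mean was kept, if that mean over the 72 libraries was at least 10, which left 11287 genes. Values were tested as log2(value + 1), so fold changes of low genes are understated. The test was limma's moderated test with a variance trend (version 3.58.1, R 4.3.3), with Benjamini-Hochberg adjustment over all genes at 0.05. Tables were made with Python 3.11.15 and pandas 2.3.3. The diet fit used the 12 libraries with diet and time as terms. Diet by time and the time effects used 4 group means, the contrast with the other times used 36 libraries and the contrast with B6 used 24. The procedure was tested on simulated data.

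Genes were named by rule: the 12 largest rises and falls for diet, up to 4 called members per list, up to 5 per direction in the other tests, and the clock genes and Esrrg. Predicted genes were passed over. A few genes that the rule names are not reported here. The members, the 48 lists and the rules were chosen with earlier results of these data known. Alternatives were pseudocounts of 10 and 0.1, other filters, summed transcripts, median centring, removal of GC and length trends (GC known for 99.5% of genes), Mir6236 as a covariate, a replicate block, a fit without variance trend, all 72 libraries, and leaving libraries out. Leaving out the libraries of other times and of B6, a fit of diet over 4 group means and the C/EBP letters were added after seeing the data. Coordinates are 1-based in mm10.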

Additional observations from a re-analysis of the deposited data

Results flagged for a closer look

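A total of 3 values stood far from the other 5 of their group by Dixon's criterion, among 54 groups tested, and chance flags about 1 in 20. Sult1e1 had a level of 11.57 in HFD ZT14 replicate 1, against 89.95 to 153.7 in the other HFD libraries. Lrtm1 had a level of 66.65 in that library, against 157.2 to 238.7 in the others. Cyp3a11 had the highest value of the table, 439903, in chow ZT14 replicate 1, and the other chow libraries had 61431 to 70334.

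HFD ZT14 replicate 1 was also the library with female-biased transcripts. Sult3a1 (105.1), A1bg (68.93), Cyp3a41a (71.72), Cyp3a44 (68.26) and Sult2a1 (16.81) were each higher there than in any of the other 71 wild-type libraries, whose highest values were 8.4, 6.724, 12.54, 14.74 and 13.16. These genes were chosen after their values were seen. Other female-biased genes were not high there: Cux2 was listed at 0 and Acot3 was at 35.96. Male-biased Mup20 was at 5936, the highest of the 12. The cause was not tested.

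The diet effect differed between ZT14 and ZT10 for Elovl3, by 2.798 on the log2 scale. Between the hours around lights off and the other times it differed by 1.553 for Col27a1, 1.017 for Ppp1r3b, 0.9549 for Tet2, 0.9217 for Srsf3, 0.7818 for Hjv, -1.938 for Cyp4a14, -0.7856 for Brap, -0.5753 for Abcb4, -0.5464 for Prkd3 and -0.4365 for Creg1. Between 129 and B6 it differed by 5.89 for Cyp2c40, 4.771 for Pcdh11x, 4.683 for Cyp2c69, 3.911 for Asns, 3.74 for Sult1e1, -6.098 for Cyp2b9, -5.466 for Cfd, -3.682 for Rpl36, -3.551 for Raet1c and -2.518 for Raet1d. Each passed the test of the difference itself.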

How the results depend on the processing

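None of the 446 diet calls changed sign in the alternatives that tested them. In the other tests the sign was checked for the named genes only, and none changed. These refits share libraries with the main fits, and a replicate block leaves the diet difference itself unchanged. A kept sign was therefore likely in advance. The 446 diet calls became 263 with a replicate block, 199 with no filter on low values, 844 with GC and length trends removed, 739 with Mir6236 as a covariate, 201 without the 2 chow ZT14 libraries high in Mir6236, 270 with a robust fit without variance trend, 242 in a fit of all 72 libraries, 276 without the time term, 75 at ZT10 alone and 120 at ZT14 alone. Pseudocounts of 10 and 0.1 gave 467 and 416, median centring gave 436 and the fit over 4 group means gave 440. Leaving out 1 library gave between 259 (chow ZT10 replicate 2) and 891 (chow ZT14 replicate 1), with 282, 262 and 288 without HFD ZT10 replicate 2, HFD ZT14 replicate 2 and HFD ZT14 replicate 3. Of 84 named genes called for diet, 11 were called in every one of the 29 settings that tested them: Cyp2a4, Cyp2c55, Cyp3a11, Gsta2, Gstm1, Gstm3, Hamp, Lrtm1, Me1, Pcdh11x and Tcf24, of which Pcdh11x was under the minimum mean of 50.

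The 1 call for diet by time became 0 with the block, with summed transcripts and with the robust fit, 2 with no filter and without the 2 libraries, 4 with GC and length trends removed and 5 with the covariate, and lay between 0 and 6 (chow ZT14 replicate 1) with 1 library left out, at 0 in 9 of 12. The 19 calls for lights off against the other times became 4 with the block, 6 with no filter, 42 with GC and length trends removed, 38 with the covariate, 5 without the 2 libraries and with the robust fit, and 8 in the fit of 72 libraries. Leaving out 1 library gave between 6 (chow ZT10 replicate 1) and 67 (chow ZT6 replicate 3). The 108 calls for 129 against B6 became 42 with the block, 247 with a pseudocount of 10, 21 with no filter, 228 with a mean of at least 50, 67 with GC and length trends removed, 5 with the covariate, 8 without the 2 libraries, 32 with the robust fit and 226 in the fit of 72 libraries. With 1 library left out the count lay between 17 (chow ZT10 replicate 2) and 630 (129 chow ZT14 replicate 1), and it was 433 without B6 chow ZT10 replicate 2. The causes were not tested. Same-numbered HFD and chow libraries correlated between -0.139 and 0.305 at ZT10 and between -0.298 and -0.034 at ZT14. Libraries with unlike numbers correlated between -0.367 and 0.132 at ZT10 and between -0.2 and 0.348 at ZT14. With so few libraries per group these values cannot tell whether the numbers pair the samples, and the labels do not say. Depth is unknown, which leaves counting error at low levels out of all of these.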

Other observations

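Some called genes outside the lists are given here. They were chosen after their values were seen and describe no pathway as a whole, and each passed the limma test for diet. Their refits are not given. Of all 446 calls 179 were kept without the 2 chow ZT14 libraries high in Mir6236. Among genes of leukocyte entry and signalling, the chemokine Cxcl1 rose by 1.75 ± 0.36 (log2 difference ± SE), the adhesion receptors Vcam1 by 0.96 ± 0.17 and Cd44 by 1.24 ± 0.22, the macrophage pore protein Mpeg1 by 1.14 ± 0.16, the kinase Syk by 0.96 ± 0.24 and Dock2 by 1.27 ± 0.27. All 6 HFD libraries were above all 6 chow libraries for Cd44, Mpeg1, Syk and Dock2. Antigen-presenting genes that rose were H2-Q6 (1.50 ± 0.28), H2-Q9 (1.09 ± 0.25), H2-Q7 (1.01 ± 0.24), H2-Aa (0.73 ± 0.15), H2-Eb1 (0.66 ± 0.17) and H2-D1 (0.45 ± 0.11). H2 genes are similar in sequence and polymorphic, and the effect of aligning 129 reads to the B6 genome on them was not tested.

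Other genes of clearance and transport went both ways. The carboxylesterase Ces2a fell by 1.50 ± 0.11, the retinoic acid hydroxylase Cyp26a1 by 1.59 ± 0.42, Cyp1a2 by 0.86 ± 0.16 and the drug exporter Abcb1b by 0.67 ± 0.18 on the log2 scale. The glycosyltransferases Ugt3a1 (1.43 ± 0.19) and Ugt3a2 (0.51 ± 0.12), the arsenic methyltransferase As3mt (0.68 ± 0.12) and the transporters Slc22a7 (1.51 ± 0.24) and Slc47a1 (0.58 ± 0.11) rose. Etnppl, which breaks down phosphoethanolamine, had a difference of -1.997 ± 0.23. Of genes that handle betaine and one-carbon units, Bhmt (1.01 ± 0.19), Bhmt2 (0.42 ± 0.09), Dmgdh (0.81 ± 0.11) and Shmt1 (0.49 ± 0.12) rose. In B6 at the same times the differences of these 4 were 1.14, 0.43, 0.66 and 1.04, each called there.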
